A study of Mus musculus with 22 samples.

Results

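Mouse embryonic stem (ES) lines and extraembryonic endoderm (XEN) lines were compared across all genes. The members were the libraries named as ES or XEN in the count table, 8 of the 22 libraries of the series, and they came from 4 of its 7 cell lines. ES line 1 was labelled female and ES line 2 male, and XEN lines 1 and 2 were both labelled male. Every line was labelled wild type for Nanog, the pluripotency factor gene that the series is about. Serum-free culture is stated for the ES libraries only, so the culture medium cannot be told apart from the lineage, and the sex of ES line 1 has no counterpart among the XEN lines. Each line gave 2 libraries from different passages, titled as technical replicates and made with the Illumina TruSeq RNA kit. Their counts were summed and the line was the replicate (n = 2 a lineage). Nothing in the labels says whether the lines of a lineage were derived independently. The p-values therefore measure the spread between lines as deposited, pooled over all 7 lines in the fit. The other samples were 6 libraries of 3 trophoblast stem (TS) lines and 8 embryos, and the embryos were not used. The TS lines entered the filter on low counts, the scaling and the estimate of the spread.

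ES cells come from the epiblast, the part of the blastocyst that forms the fetus. XEN cells come from the primitive endoderm, the layer that covers the epiblast and later forms the visceral and parietal endoderm of the yolk sacs. In the blastocyst the epiblast secretes FGF4, and cells that respond through FGF receptors and ERK switch on GATA6, GATA4 and SOX17 in place of NANOG. Parietal endoderm lays down Reichert's membrane, a thick basement membrane, while visceral endoderm takes up and secretes nutrients, lipoproteins and serum proteins.

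Library totals were 8201801 to 9551415 counts in ES and 12659293 to 23677126 in XEN, and 15367 to 15614 genes had a count in the ES libraries against 13743 to 14564 in the XEN libraries. The 20 genes with most counts took 7.4 to 7.6% of an ES library and 11.2 to 13.2% of a XEN library. Of 21881 gene symbols, 14687 passed the filter on low counts over the ES, TS and XEN lines. Of these, 174 had at most 3 counts in both ES and XEN, 56 of them with 0 in both. With the ES and XEN lines only, 14004 genes passed. Levels below are counts per 1000000 (CPM) after TMM scaling, which corrects totals for a few abundant genes. Where 4 values stand in a row they are ES line 1, ES line 2, XEN line 1 and XEN line 2. A log2 fold change is the fitted difference ES minus XEN, so a negative value is higher in XEN, and SE is its standard error. "Called" means a Benjamini-Hochberg adjusted p under 0.05 over all genes tested.

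The marker genes separated the lineages as labelled. Pou5f1, which encodes OCT4, stood at 1551, 1428, 3.59 and 4.05 CPM (log2 fold change 8.61, SE 0.32, edgeR adjusted p = 1.61e-05). Esrrb, an orphan nuclear receptor gene of naive pluripotency, stood at 1022, 1085, 0.706 and 1.01 CPM (10.26, SE 0.39, adjusted p = 1.61e-05). Every ES library lay far above every XEN library for both genes, with no overlap. Gata4, a zinc finger factor gene of primitive endoderm, was the mirror image at 4.43, 6.11, 1439 and 1082 CPM (-7.90, SE 0.33, adjusted p = 1.65e-05). Dab2, whose product is the adaptor that links endocytic receptors to clathrin, stood at 1.07, 1.24, 1056 and 1193 CPM (-9.92, SE 0.40, adjusted p = 1.65e-05). In bulk RNA, fewer cells with a transcript and less of it in each cell cannot be told apart, so the few CPM of Pou5f1 in XEN and of Gata4 in ES do not say which cells they came from.

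**Figure D1:**
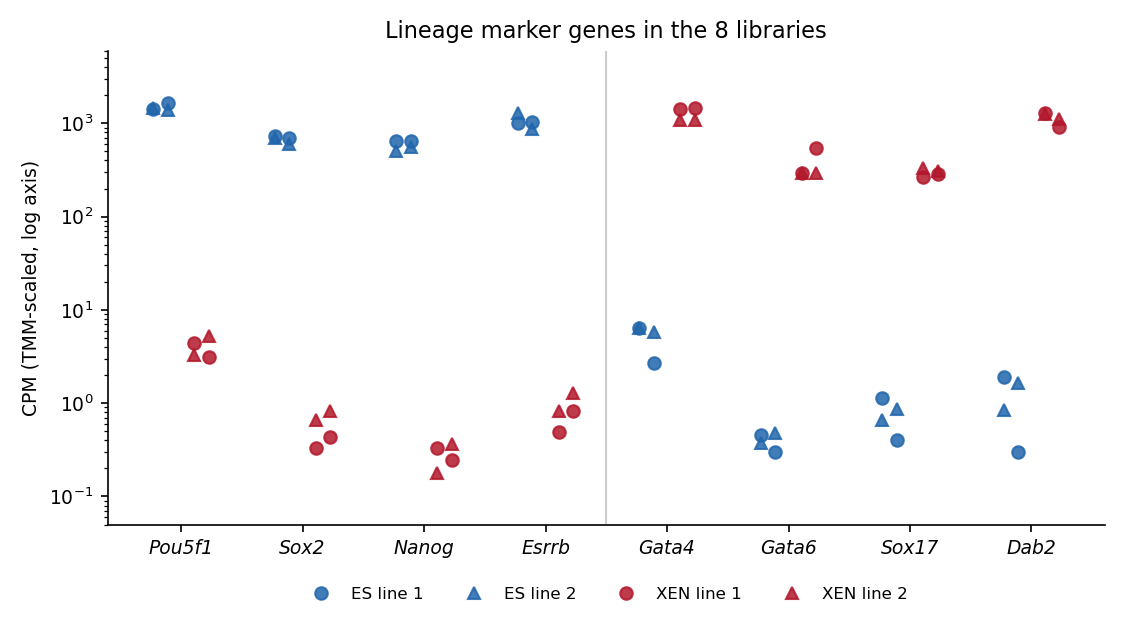
CPM on a log axis for 8 lineage genes in the 4 ES libraries (blue) and 4 XEN libraries (red), circles for line 1 and triangles for line 2, with 2 points a line. The pluripotency genes on the left lie between 507 and 1659 CPM in ES and at 5.24 CPM or less in XEN, and the endoderm genes on the right lie at 6.43 CPM or less in ES and between 269 and 1444 CPM in XEN.

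Over all genes, 6630 of 14687 were called (45.1%), 3431 higher in ES (23.4%) and 3199 higher in XEN (21.8%). With a fitted fold of at least 4 as well, 2349 were higher in ES (16.0%) and 1360 in XEN (9.26%). Setting genes with at most 3 counts in a lineage to the ratio or bound that their counts give left 2335 and 1357. Among well expressed genes the lean was the other way. Of the 6417 genes that averaged 32 CPM or more over the 4 lines, 277 were called and at least 4-fold higher in ES and 542 in XEN. At most 3 counts in the 4 XEN libraries together were seen for 1321 tested genes, 1001 of them called. The same in ES was seen for 445, 182 of them called, although the XEN libraries were the deeper ones. Such genes passed the filter only through their counts in the other lineages, TS among them. The direction of their calls was therefore largely set by the filter. The split between directions depended on scaling. With library totals alone, 4561 genes were called higher in ES and 2289 higher in XEN (66.6% of calls in ES against 51.7%), and the median of all genes moved from 0.05 to 0.39 on the log2 scale.

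**Figure D2:**
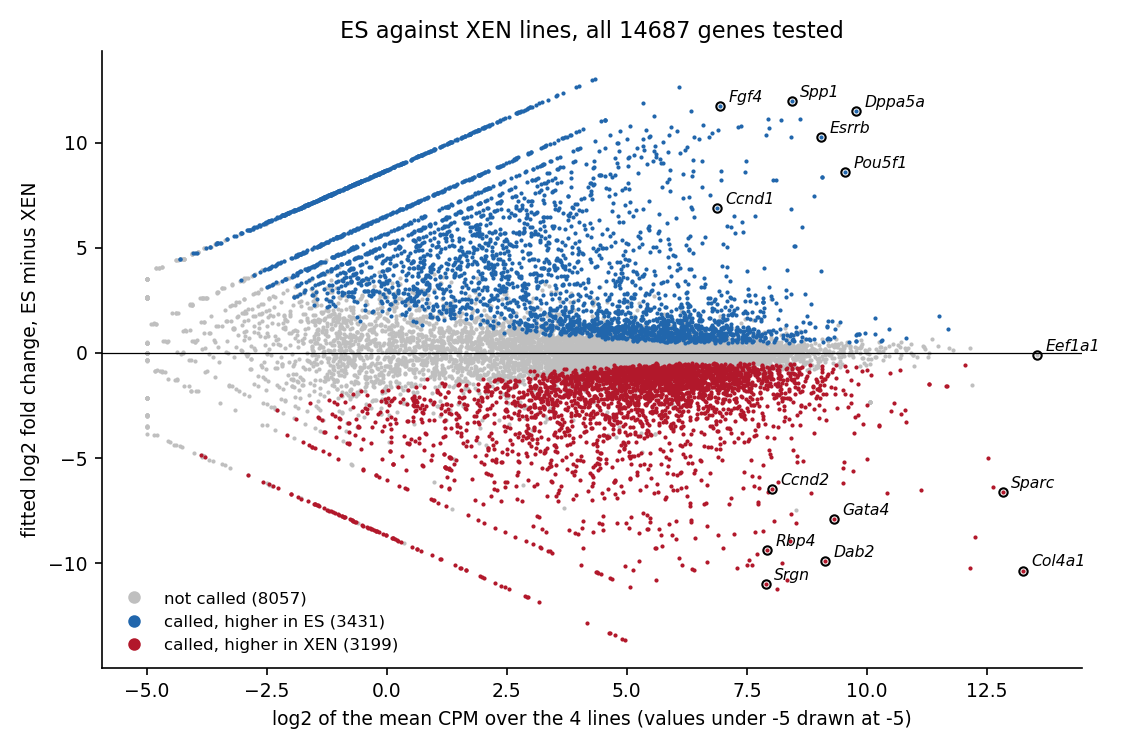
Fitted log2 fold change (ES minus XEN) against the log2 of the mean CPM over the 4 lines for the 14687 genes tested, blue for 3431 genes called higher in ES, red for 3199 called higher in XEN and grey for 8057 not called. Named genes are circled: Col4a1 and Sparc stand out at the high end as higher in XEN, Eef1a1 lies near 0, and the slanted lines on the left are genes with almost no counts in a lineage.

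Among genes at a mean log2 CPM of 5 or more, and with more than 3 counts in XEN, the 12 with the largest differences towards ES were Spp1, Fgf4, Dppa5a, Trh, Nanog, Nr0b1, Lefty2, Pnma5, Cobl, Laptm5, Trpm1 and Tcl1, with log2 fold changes from 10.55 to 11.96. Spp1, which encodes the secreted integrin ligand osteopontin, stood at 782, 600, 0.0614 and 0.289 CPM (11.96, SE 1.20, adjusted p = 0.000366). Fgf4, the epiblast growth factor gene, was at 248, 246, 0.0307 and 0.108 CPM (11.75, SE 0.72, adjusted p = 5.55e-05), and its 4 XEN libraries held 4 counts in all against 9793 in ES. Dppa5a, whose product is an RNA-binding protein of pluripotent cells, was at 1671, 1838, 0.645 and 0.543 CPM (11.51, SE 0.26, adjusted p = 4.68e-06). The neuropeptide precursor gene Trh reached 882 and 672 CPM in ES and 0.491 and 0.181 in XEN. Nanog itself was at 647, 532, 0.276 and 0.253 CPM (11.09, SE 0.62, adjusted p = 3.96e-05). Laptm5, known as a lysosomal membrane protein gene of blood cells, was at 612, 380, 0.369 and 0.217 CPM (10.68, SE 1.07, adjusted p = 0.000367).

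Towards XEN the 12 leading genes by the same rule were Enpep, Srgn, Cubn, Col4a1, Frzb, Stra6, Col4a2, Sox7, Hkdc1, Thbd, Hs3st1 and Pth1r, with log2 fold changes from -10.01 to -11.23. Enpep, the gene of the membrane peptidase aminopeptidase A, stood at 0.427, 0.0478, 332 and 792 CPM (-11.23, SE 0.88, adjusted p = 0.000145). Srgn, the core protein gene of the proteoglycan serglycin, was at 0.267, 0.191, 434 and 518 CPM (-11.00, SE 0.36, adjusted p = 1.61e-05). Cubn encodes cubilin, an endocytic receptor of visceral endoderm, and was at 0.321, 0.382, 910 and 376 CPM (-10.81, SE 0.68, adjusted p = 6.29e-05). Pth1r, the parathyroid hormone receptor gene of parietal endoderm, was at 0.588, 0.573, 638 and 570 CPM (-10.01, SE 0.29, adjusted p = 9.54e-06). Stra6, a receptor gene for retinol-binding protein, and Thbd, which encodes thrombomodulin, had wide errors: their adjusted p of 0.0157 and 0.0138 became 0.117 and 0.112 without ES line 1, and 0.122 and 0.1 without ES line 2.

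The promoters of these genes were searched for the motifs of factors that separate the lineages, since Gata4 and Gata6 were high in XEN and Pou5f1 and Esrrb in ES. The motifs were AGATAA for GATA factors, the octamer ATGCAAAT for POU factors such as OCT4, and TCAAGGTCA for orphan nuclear receptors such as ESRRB, on either strand (TTATCT, ATTTGCAT and TGACCTTGA). They do not overlap each other. RefSeq promoters of 300 bases, 250 before and 50 after the start, were found by symbol for 24 of the 31 marker and leading genes, and 7 of these 24 held a motif. The window that held it is shown for these 7, 5′ to 3′ in the direction of the gene, with the motif in capitals, because these are the leading genes at which such a motif occurs. Stra6 has 4 start windows in the table, Dab2, Spp1, Srgn, Cobl and Trpm1 have 2 each and Pnma5 has 1. The other windows of these genes hold none of the 3 motifs.
Dab2: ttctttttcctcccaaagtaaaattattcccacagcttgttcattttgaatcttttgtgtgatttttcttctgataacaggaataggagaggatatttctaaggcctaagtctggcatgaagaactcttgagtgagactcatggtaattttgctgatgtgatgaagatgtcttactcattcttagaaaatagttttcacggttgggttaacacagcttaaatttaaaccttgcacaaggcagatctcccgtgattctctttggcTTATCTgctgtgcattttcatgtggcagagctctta
Stra6: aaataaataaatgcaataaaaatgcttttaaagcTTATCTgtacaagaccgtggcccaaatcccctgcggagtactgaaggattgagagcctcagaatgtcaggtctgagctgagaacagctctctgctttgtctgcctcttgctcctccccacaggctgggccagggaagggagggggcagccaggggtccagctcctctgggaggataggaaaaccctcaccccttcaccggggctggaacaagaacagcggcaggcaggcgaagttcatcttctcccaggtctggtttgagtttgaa
Spp1: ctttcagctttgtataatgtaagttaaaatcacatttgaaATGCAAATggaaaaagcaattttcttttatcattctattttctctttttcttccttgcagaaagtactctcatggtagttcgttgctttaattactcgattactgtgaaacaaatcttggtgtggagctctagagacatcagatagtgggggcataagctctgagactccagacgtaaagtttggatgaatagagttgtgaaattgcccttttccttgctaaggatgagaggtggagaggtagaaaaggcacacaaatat
Pnma5: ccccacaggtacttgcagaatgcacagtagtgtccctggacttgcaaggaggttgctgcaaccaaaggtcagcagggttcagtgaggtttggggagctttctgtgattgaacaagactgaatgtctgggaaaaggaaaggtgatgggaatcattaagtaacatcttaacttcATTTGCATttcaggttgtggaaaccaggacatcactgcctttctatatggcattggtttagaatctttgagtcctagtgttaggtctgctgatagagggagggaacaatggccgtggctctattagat
Srgn: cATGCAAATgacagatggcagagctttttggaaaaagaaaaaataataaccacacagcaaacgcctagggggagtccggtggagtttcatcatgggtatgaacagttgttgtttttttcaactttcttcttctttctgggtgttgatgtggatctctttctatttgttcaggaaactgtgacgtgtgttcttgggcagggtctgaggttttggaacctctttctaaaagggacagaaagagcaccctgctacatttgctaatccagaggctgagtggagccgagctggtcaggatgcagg
Cobl: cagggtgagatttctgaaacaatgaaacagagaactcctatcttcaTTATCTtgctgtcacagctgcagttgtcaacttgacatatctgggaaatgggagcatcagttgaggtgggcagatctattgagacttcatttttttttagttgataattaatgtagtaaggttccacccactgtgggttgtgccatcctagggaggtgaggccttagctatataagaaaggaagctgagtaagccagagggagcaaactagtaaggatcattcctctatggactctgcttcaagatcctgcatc
Trpm1: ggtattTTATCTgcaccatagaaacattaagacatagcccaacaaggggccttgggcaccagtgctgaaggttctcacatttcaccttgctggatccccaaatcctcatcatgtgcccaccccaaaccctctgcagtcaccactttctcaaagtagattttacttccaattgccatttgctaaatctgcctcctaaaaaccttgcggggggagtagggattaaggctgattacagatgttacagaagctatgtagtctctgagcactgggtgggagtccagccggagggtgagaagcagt
In build GRCm38.p6 the Dab2 window is chr15:6299539-6299838 on the plus strand, and its GATA motif begins at base 15 after the start. The Stra6 window is chr9:58133825-58134124 (plus strand), with the GATA motif beginning at -216 from the start. Both genes were higher in XEN. The octamer lies at -210 in the Spp1 window (chr5:104435942-104436241, plus strand) and at -78 in the Pnma5 window (chrX:73037054-73037353, minus strand), both genes being higher in ES. Srgn (chr10:62507708-62508007, minus strand) was higher in XEN but holds the octamer, at -249. Cobl, an actin nucleator gene (chr11:12412091-12412390, minus strand), and Trpm1, a cation channel gene (chr7:64153585-64153884, plus strand), were higher in ES but hold the GATA motif, at -204 and -244.

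Shares over the whole comparison are of genes with the motif in at least 1 of their start windows. The octamer was found for 51 of the 1543 genes with a promoter among those called and at least 4-fold higher in ES (3.31%), for 14 of 955 of those higher in XEN (1.47%) and for 173 of 10140 of all genes tested (1.71%). The GATA motif was found for 8.94%, 9.74% and 7.88% of the same 3 sets, and for 12.7% of all 27025 genes of the table, where the octamer had 1.97%. The nuclear receptor motif was rare, at 0.389%, 0.209% and 0.345%, against 0.466% of the whole table. These shares are descriptions of letters in a window, not of binding.

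**Figure D3:**
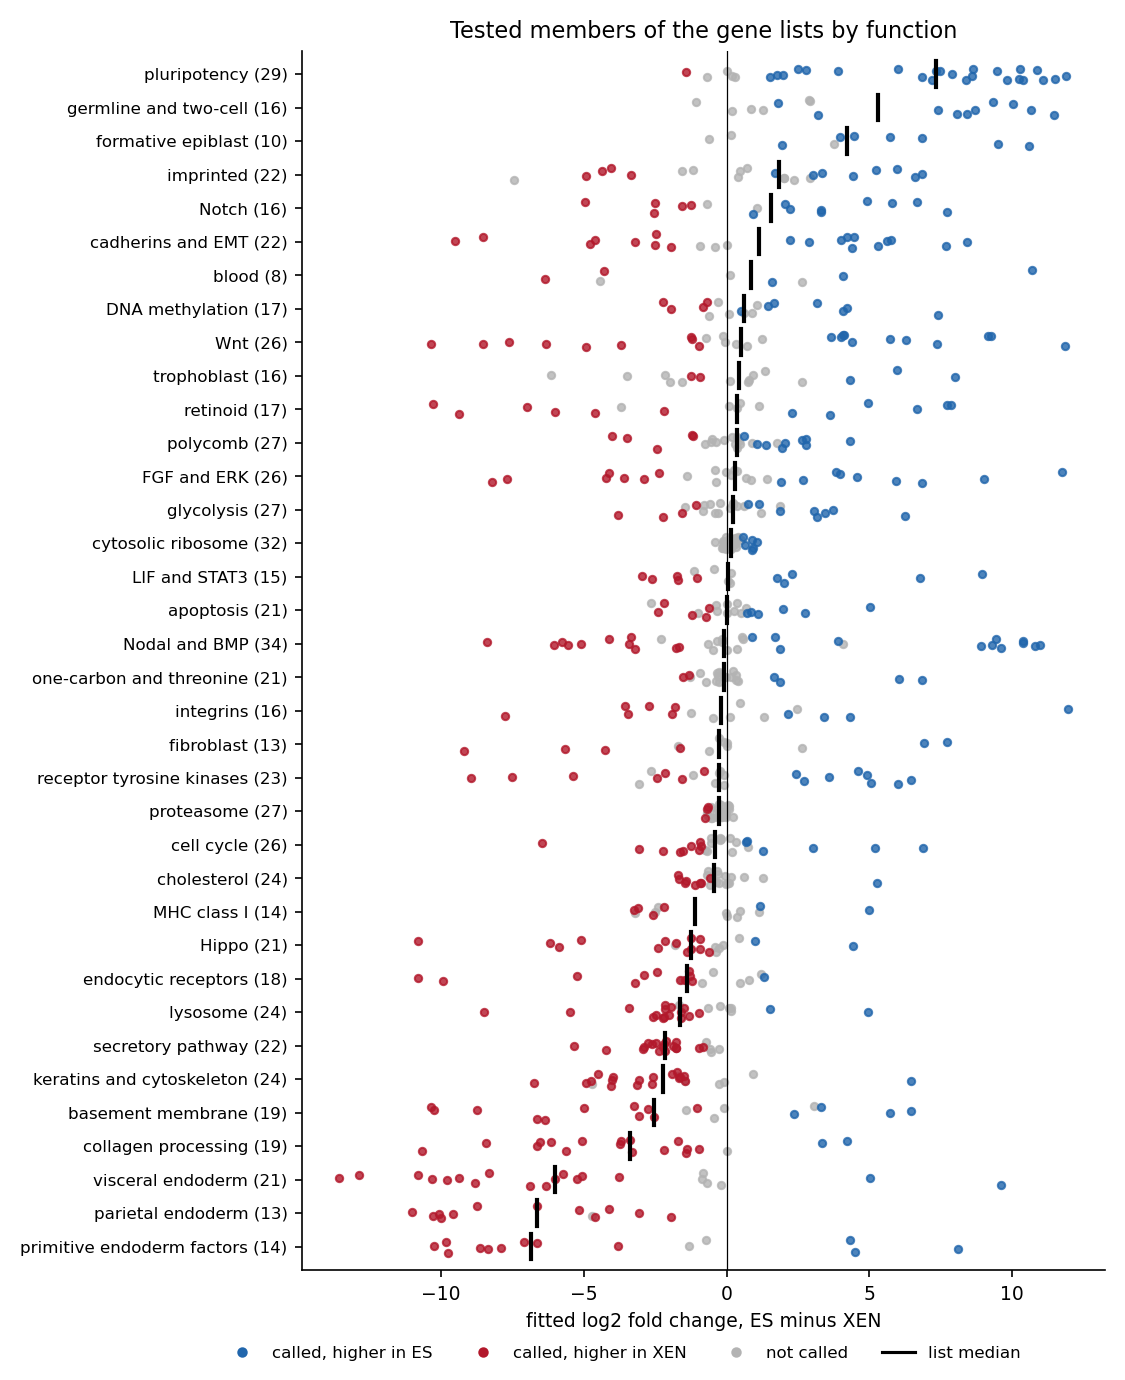
Fitted log2 fold change (ES minus XEN) of every tested member of 36 gene lists by function, blue for members called higher in ES, red for members called higher in XEN and grey for those not called, with a black bar at each list's median and the number tested in brackets. Pluripotency genes lie at the top with a median of 7.32, the 3 endoderm lists at the bottom with medians from -6.02 to -6.87, and ribosome and proteasome genes sit close to 0.

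Pluripotency genes were higher in ES, but a few were shared by the lineages. All 29 listed genes were tested, of which 24 were called higher in ES, 1 higher in XEN and 4 not called. That is 86.2% called against 45.1% of all genes. The median log2 fold change was 7.32 against 0.05 for all genes tested. Sox2, which encodes the partner of OCT4, was at 713, 648, 0.399 and 0.724 CPM (10.25, SE 0.53, adjusted p = 3.14e-05). Zfp42, the REX1 gene of naive cells, was at 927, 963, 7.19 and 3.47 CPM (7.46, SE 0.45, adjusted p = 5.38e-05). Gdf3, a TGF-beta family ligand gene, was at 138, 96.8, 0.0614 and 0.108 CPM (10.38, SE 0.44, adjusted p = 1.65e-05). Several naive factors differed far less. Klf4 stood at 653, 684, 192 and 198 CPM (1.78, SE 0.26, adjusted p = 0.00163) and Tbx3 at 337, 305, 56.9 and 57.6 CPM (2.49, SE 0.33, adjusted p = 0.00114). Sall4, a zinc finger gene expressed in both lineages, was at 243, 216, 255 and 201 CPM (0.01, SE 0.26, adjusted p = 0.982). Klf5 stood at 160, 130, 148 and 91.8 CPM (0.28, SE 0.30, adjusted p = 0.482), with overlapping libraries. Lin28a, which encodes an RNA-binding protein that blocks let-7 maturation, ran the other way at 158, 234, 551 and 505 CPM (-1.43, SE 0.25, adjusted p = 0.00339).

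Genes of the formative state, through which the epiblast passes after implantation, were mostly higher in ES. Of 10 tested, 7 were called higher in ES, none higher in XEN and 3 not called (70.0% called against 45.1% of all genes). Otx2, a homeobox gene, had 607 counts in the ES and 1 in the XEN libraries, a ratio of 921 after scaling to library size (95% counting interval 165 to 36500). T, the brachyury gene, stood at 24.4, 20.8, 0.369 and 0 CPM (6.85, SE 1.06, adjusted p = 0.00215). Foxd3 was at 76.1 and 39.8 CPM in ES and had 2 counts in XEN. Dnmt3b, the de novo methyltransferase gene, was not called, at 92.9, 82.6, 186 and 85.2 CPM.

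Germline and 2-cell stage genes had 10 of 16 tested members called higher in ES, none higher in XEN and 6 not called. That is 62.5% called against 45.1% of all genes (median 5.31, or 4.29 with low-count genes at their bound). Dazl, a germ cell RNA-binding protein gene, was at 27.0, 49.5, 0 and 0.289 CPM (8.07, SE 1.10, adjusted p = 0.00123). Tdrd12, of the piRNA pathway, was at 61.8, 31.2, 0.215 and 0.0362 CPM (8.43, SE 1.13, adjusted p = 0.00114). Ddx4, Mael and Stk31 had 320, 207 and 557 counts in ES and 0 in XEN, at least 162-fold, 105-fold and 282-fold higher by a limit of 3 counts over the XEN group. Zscan4c, the marker of the rare 2-cell-like state, was not called, at 1.55, 3.54, 0.215 and 0.470 CPM (adjusted p = 0.0615). Tex19.1 was as high in XEN line 2 as in ES, at 82.7, 92.8, 6.57 and 89.9 CPM.

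The transcription factors of primitive endoderm set the XEN lines apart. Of 14 listed and tested, 9 were called higher in XEN, 3 higher in ES and 2 not called. That is 85.7% called against 45.1% of all genes (median -6.87). Gata6 stood at 0.374, 0.430, 449 and 293 CPM (-9.83, SE 0.42, adjusted p = 1.65e-05) and Sox17 at 0.748, 0.764, 279 and 321 CPM (-8.62, SE 0.37, adjusted p = 1.65e-05). Sox7, a SOX factor gene of the same family as Sox17, was at 0.427, 0.0955, 446 and 179 CPM (-10.23, SE 0.72, adjusted p = 9.99e-05). Foxa2, a forkhead gene of endoderm, was at 0.160, 0.143, 149 and 124 CPM (-9.77, SE 0.69, adjusted p = 0.000101), and Hnf4a, which encodes a nuclear receptor of visceral endoderm, was at 5.88, 5.44, 102 and 56.1 CPM (-3.80, SE 0.45, adjusted p = 0.000674). The exceptions were Eomes, Gsc and Cebpa. Eomes stood at 14.4, 22.7, 1.505 and 0.289 CPM, while Gsc had 53 counts in ES and 0 in XEN, and Cebpa 49 and 3. Foxa1 was not called, with 11 counts in ES and 39 in XEN.

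Marker genes of both descendants of primitive endoderm were mostly higher in XEN. Bulk RNA cannot tell separate cell types from cells that express both sets. Of 21 visceral endoderm genes tested, 15 were called higher in XEN, 2 higher in ES and 4 not called. That is 81.0% called against 45.1% of all genes (median -6.02, or -5.76 with low-count genes at their bound). Rbp4, which encodes the plasma retinol carrier, was at 0.588, 0.860, 326 and 639 CPM (-9.36, SE 0.55, adjusted p = 4.57e-05). Spink3, a secreted protease inhibitor gene, was at 0.481, 0.287, 173 and 171 CPM (-8.80, SE 0.46, adjusted p = 3.14e-05). Ihh, the Indian hedgehog ligand gene, was at 0.214, 0.191, 39.2 and 91.8 CPM (-8.31, SE 0.61, adjusted p = 0.000114). Some serum protein genes had no count in ES. Ttr, the transthyretin gene, had 0 counts in ES and 33.7 and 85.3 CPM in XEN (3456 counts, at least 759-fold higher), and Afp, the alpha-fetoprotein gene, had 0 in ES and 10.4 and 62.1 CPM in XEN (2054 counts, at least 451-fold higher). The apolipoprotein gene Apoe did not follow, at 612, 658, 1295 and 175 CPM (-0.21, SE 0.80, adjusted p = 0.850), and without XEN line 1 it was called higher in ES (1.85, adjusted p = 0.0486). Lefty1, a Nodal inhibitor that marks anterior visceral endoderm in the embryo, was higher in ES, at 131, 58.6, 0.123 and 0.108 CPM.

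Of 13 parietal endoderm genes, 12 were called higher in XEN (92.3% against 45.1% of all genes called) and 1, Krt19, was not (median -6.64). Without ES line 1 or ES line 2 the count was 8. Sparc, which encodes a secreted collagen-binding protein, was at 169, 120, 13840 and 14970 CPM (-6.64, SE 0.29, adjusted p = 1.65e-05). Plat, the tissue plasminogen activator gene, was at 0.374, 0.716, 366 and 476 CPM (-9.57, SE 0.94, adjusted p = 0.000337). Snai1, a repressor gene of epithelial junctions, was at 5.93, 3.68, 167 and 66.4 CPM (-4.60, SE 0.75, adjusted p = 0.00259). Krt19 was on in XEN line 2 and nearly off elsewhere, at 1.496, 4.39, 2.03 and 152 CPM (adjusted p = 0.115), and it was called higher in XEN without XEN line 1 (-5.69, adjusted p = 0.0450).

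Basement membrane genes made up a large share of XEN RNA: Col4a1, for an alpha chain of collagen IV, took 1.21 to 2.08% of the counts of the XEN libraries, more than any other gene. Of 19 genes tested, 11 were called higher in XEN, 4 higher in ES and 4 not called. That is 78.9% called against 45.1% of all genes (median -2.56). Col4a1 stood at 15.2, 14.5, 16540 and 22320 CPM (-10.36, SE 0.41, adjusted p = 1.61e-05) and Col4a2, its partner chain gene, at 8.44, 6.50, 8161 and 10040 CPM (-10.25, SE 0.55, adjusted p = 3.64e-05). The 3 chains of laminin 111 were all called higher in XEN. Lama1 was at 150, 151, 13370 and 11610 CPM (-6.38, SE 0.28, adjusted p = 1.73e-05), Lamb1 at 16.99, 28.8, 10430 and 9081 CPM (-8.73, SE 0.35, adjusted p = 1.61e-05), and Lamc1 at 402, 309, 10620 and 12290 CPM (-5.01, SE 0.23, adjusted p = 2.07e-05). The linker gene Nid1 was at 179, 193, 1600 and 1498 CPM (-3.06, SE 0.17, adjusted p = 3.67e-05). Among the genes called higher in ES, Col18a1, the collagen XVIII gene, was at 182, 153, 3.47 and 0.326 CPM (6.44, SE 0.94, adjusted p = 0.00166). Lama5 was not called, at 274, 199, 366 and 139 CPM.

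**Figure D4:**
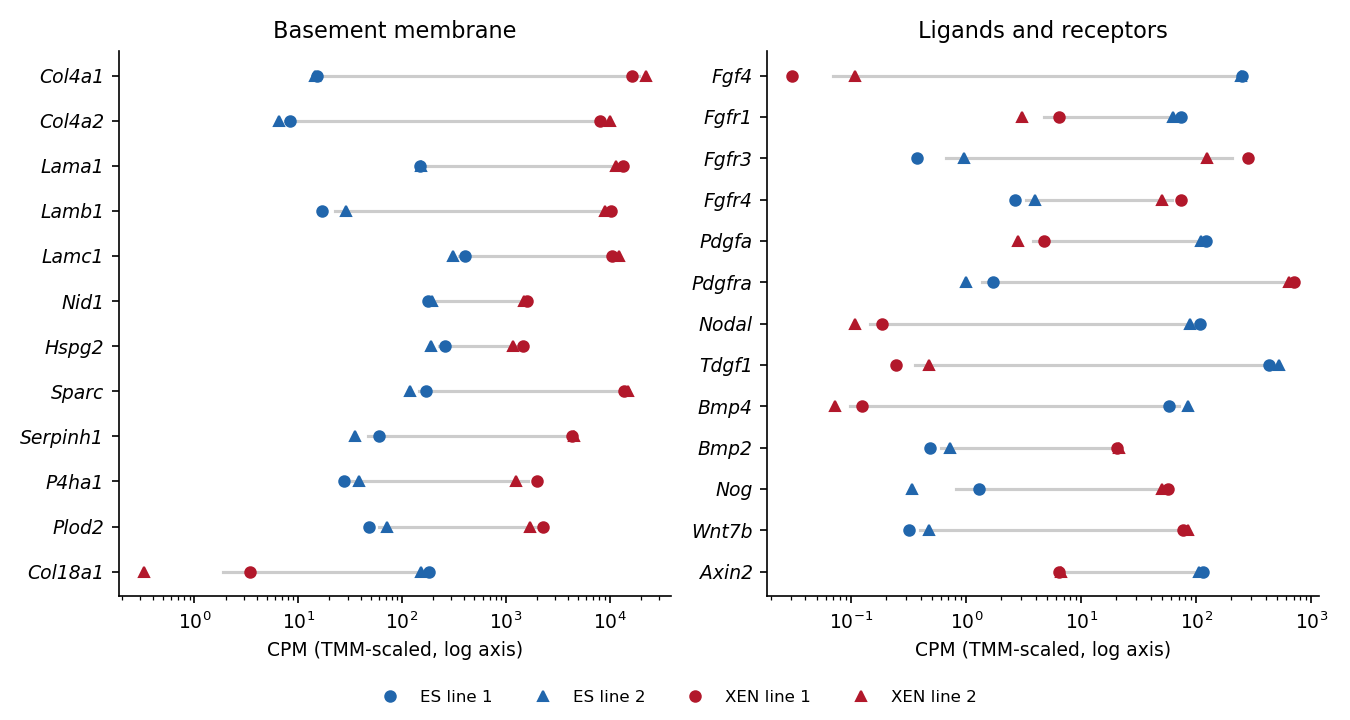
CPM on a log axis in ES (blue) and XEN (red), circles for line 1 and triangles for line 2, for basement membrane and collagen processing genes (left) and ligands and receptors (right); grey bars join the lineage means. Col4a1 runs from 14.5 and 15.2 CPM in ES to 16540 and 22320 in XEN with Col18a1 reversed, and Fgf4, Pdgfa, Nodal and Bmp4 lie high in ES while Fgfr3, Fgfr4, Pdgfra and Bmp2 lie high in XEN.

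The enzymes that fold and modify collagen moved in the same direction: 16 of 19 genes were called higher in XEN, 2 higher in ES and 1 not called. That is 94.7% called against 45.1% of all genes (median -3.37). Lox, the gene not called, had 0 counts in both lineages. The ES count was 1 without ES line 1, ES line 2 or XEN line 2. Serpinh1, the collagen chaperone gene, was at 59.6, 35.7, 4330 and 4533 CPM (-6.54, SE 0.36, adjusted p = 3.99e-05). P4ha1 and P4ha2, the catalytic subunit genes of prolyl 4-hydroxylase, were at 27.5, 38.3, 2020 and 1254 CPM (-5.64, SE 0.41) and 6.09, 9.79, 608 and 515 CPM (-6.14, SE 0.41). Plod2, a lysyl hydroxylase gene, was at 48.4, 71.6, 2272 and 1731 CPM (-5.06, SE 0.48, adjusted p = 0.00029).

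Genes of the secretory pathway were mostly higher in XEN as well. Of 22 genes, 18 were called higher in XEN, none higher in ES and 4 not called. That is 81.8% called against 45.1% of all genes (median -2.14). Kdelr3, a receptor gene that returns chaperones to the endoplasmic reticulum, was at 8.76, 13.2, 334 and 561 CPM (-5.35, SE 0.37, adjusted p = 8.68e-05). Pdia3, a disulfide isomerase gene, was at 336, 300, 1933 and 1556 CPM (-2.46, SE 0.22, adjusted p = 0.000235). Hspa5, the BiP chaperone gene, was at 420, 337, 2893 and 2180 CPM (-2.75, SE 0.37, adjusted p = 0.00122). The stress regulators Atf4 and Ddit3 were not called, at 379, 269, 611 and 361 CPM and 21.2, 18.8, 48.2 and 18.7 CPM.

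Endocytic receptors gave 11 of 18 genes higher in XEN, 1 higher in ES and 6 not called. That is 66.7% called against 45.1% of all genes (median -1.39). Without ES line 2 the XEN count was 7, and without either ES line the ES count was 0. Lrp2, the megalin gene that works with cubilin, was at 5.18, 3.20, 148 and 171 CPM (-5.25, SE 0.90, adjusted p = 0.00316). Lrpap1, which encodes the chaperone of that receptor family, was at 125, 97.7, 934 and 1103 CPM (-3.20, SE 0.25, adjusted p = 0.000148). Amn, the amnionless gene whose product anchors cubilin, was not called, at 0.427, 0.191, 0.676 and 0.434 CPM.

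Lysosomal genes followed, with 16 of 24 higher in XEN, 2 higher in ES and 6 not called (median -1.64). Ctsh, a cathepsin gene, was at 0.534, 1.67, 300.2 and 512 CPM (-8.50, SE 0.81, adjusted p = 0.000302). Lgmn, the legumain protease gene, was at 27.0, 36.1, 1283 and 1548 CPM (-5.49, SE 0.41, adjusted p = 0.000124), and Ctsl was at 206, 210, 2039 and 2411 CPM (-3.42, SE 0.25, adjusted p = 0.00011). Gusb, the beta-glucuronidase gene, was reversed at 23.1, 23.1, 0.983 and 0.506 CPM (4.93, SE 0.40, adjusted p = 0.000165).

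Adhesion genes changed in both directions. With 86.4% called against 45.1% of all genes, 11 of 22 cadherin and epithelial-mesenchymal genes were higher in ES, 8 higher in XEN and 3 not called. These counts fell to 8 and to 5 or 6 with any 1 line left out. Cdh1, the E-cadherin gene, was at 318, 358, 5.44 and 7.02 CPM (5.76, SE 0.23, adjusted p = 1.61e-05), and Cldn4, a tight junction claudin gene, was at 150, 178, 0.676 and 0.253 CPM (8.42, SE 0.47, adjusted p = 4.12e-05). Cdh6 ran the other way at 0.0534, 0.334, 63.1 and 89.3 CPM (-8.54, SE 1.31, adjusted p = 0.00205), as did Zeb2, a repressor gene of E-cadherin, at 0.641, 0.716, 22.7 and 14.7 CPM (-4.77, SE 0.70, adjusted p = 0.00169). Ctnnb1, the beta-catenin gene, was not called, at 837, 790, 840 and 763 CPM (0.02, SE 0.18, adjusted p = 0.929).

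The integrin list also holds the ligand genes Spp1 and Fn1. Of 16 genes, 4 were higher in ES, 6 higher in XEN and 6 not called (62.5% called against 45.1% of all genes). The median was -0.19, or 0.15 with library totals alone and positive with limma voom. The ES count was 2 without ES line 2. Besides Spp1, the genes higher in ES were Itga4, Itgb3 and Itgb4, and Itgb3, a beta chain gene, was at 2.08, 1.58, 0.123 and 0.217 CPM (3.41, SE 0.64, adjusted p = 0.00458). The call of Itga4 was lost with any 1 line left out (adjusted p from 0.0979 to 0.159), and that of Itgb4 without ES line 2, XEN line 1 or XEN line 2 (adjusted p = 0.0576, 0.0614 and 0.0566). Itgb1, the beta chain gene of many matrix receptors, was at 153, 138, 974 and 932 CPM (-2.71, SE 0.17, adjusted p = 6.98e-05). Its partner Itga5, of the fibronectin receptor, was at 29.7, 58.3, 686 and 281 CPM (-3.46, SE 0.56, adjusted p = 0.00248). Itga6, of laminin receptors, was not called at 73.2, 83.9, 118 and 102 CPM. Fn1, the fibronectin gene, was not called either, at 946, 995, 130 and 646 CPM, but was called higher in ES without XEN line 2 (2.89, adjusted p = 0.0122).

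Of 24 keratin, annexin and actin-binding genes, 17 were higher in XEN, 1 higher in ES and 6 not called (median -2.24). Krt8 and Krt18, the paired keratins of simple epithelia, were at 31.6, 46.6, 617 and 685 CPM (-4.06, SE 0.78) and 9.24, 23.6, 455 and 545 CPM (-4.93, SE 0.69). Cnn2, a calponin gene, was at 5.72, 11.8, 166 and 229 CPM (-4.50, SE 0.46, adjusted p = 0.000393), and Cald1, the caldesmon gene, at 49.0, 51.4, 317 and 304 CPM (-2.63, SE 0.27, adjusted p = 0.000399). Vim, the vimentin gene, was at 311, 304, 1135 and 1246 CPM (-1.95, adjusted p = 0.0285), a call that was lost with any 1 line left out (adjusted p from 0.0682 to 0.127). Krt42 alone was higher in ES.

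FGF signalling genes changed in both directions. Of 26 ligand, receptor, feedback and target genes tested, 9 were called higher in ES, 7 higher in XEN and 10 not called. That is 61.5% called against 45.1% of all genes. Of the ligands, Fgf4 was higher in ES as above, and Fgf3 was higher in XEN at 3.31, 1.19, 63.1 and 16.1 CPM (-4.14, SE 0.77, adjusted p = 0.0045). The receptor gene Fgfr1 was higher in ES, at 73.8, 62.5, 6.39 and 3.08 CPM (3.84, SE 0.39, adjusted p = 0.000383). The other receptors were higher in XEN. Fgfr3 was at 0.374, 0.955, 283 and 124 CPM (-8.23, SE 0.74, adjusted p = 0.00023), Fgfr4 at 2.67, 3.92, 73.5 and 49.9 CPM (-4.22, SE 0.50, adjusted p = 0.000693) and Fgfr2 at 1.496, 0.860, 8.17 and 20.2 CPM (-3.59, SE 0.61, adjusted p = 0.00301). Klb, the co-receptor gene for endocrine FGFs, was at 0.374, 0.430, 90.9 and 79.2 CPM (-7.71, SE 0.46, adjusted p = 5.05e-05). Of the feedback and target genes, 8 of 13 were not called (38.5% called against 45.1% of all genes). Among them were Dusp6 at 34.8, 48.4, 46.8 and 23.7 CPM and Spry4 at 45.3, 80.5, 83.8 and 83.0 CPM. Etv5, an ETS factor gene downstream of FGF, was at 557, 548, 86.4 and 86.5 CPM (2.68, SE 0.23, adjusted p = 0.000211).

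The PDGF ligand and receptor differed in opposite directions. Pdgfa, the ligand gene, was at 122, 109, 4.73 and 2.82 CPM (4.93, SE 0.36, adjusted p = 0.000111), and Pdgfra, its receptor gene and a primitive endoderm marker, at 1.71, 1.00, 708 and 632 CPM (-8.95, SE 1.07, adjusted p = 0.000728). Of 23 growth factor receptor and insulin-like growth factor genes, 8 were higher in ES, 7 higher in XEN and 8 not called, and the XEN count was 4 without ES line 1. Of this list 65.2% were called, against 45.1% of all genes. Egfr was at 6.46, 3.82, 0.184 and 0.108 CPM (5.07, SE 0.48, adjusted p = 0.00028) and Erbb2 at 17.6, 16.3, 68.4 and 81.3 CPM (-2.14, SE 0.24, adjusted p = 0.000599).

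Nodal and BMP pathway genes changed in both directions. In the Nodal and activin branch 9 of 19 genes were called higher in ES, 3 higher in XEN and 7 not called. That is 63.2% called against 45.1% of all genes. Nodal was at 106, 87.5, 0.184 and 0.108 CPM (9.30, SE 0.57, adjusted p = 5.55e-05). Tdgf1, its co-receptor gene, was at 430, 524, 0.246 and 0.470 CPM (10.38, SE 0.58, adjusted p = 3.96e-05). Lefty2, the feedback inhibitor gene, was at 457, 206, 0.154 and 0.217 CPM (10.78, SE 0.88, adjusted p = 0.000162). Among the receptor genes, Acvr2a stood at 19.6, 18.1, 30.6 and 21.6 CPM and was not called, while Tgfbr2 stood at 4.81, 5.06, 51.1 and 49.5 CPM (-3.35, SE 0.23, adjusted p = 8.32e-05).

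In the BMP branch 3 of 15 genes were higher in ES, 8 higher in XEN and 4 not called. That is 73.3% called against 45.1% of all genes. The ligands were exchanged. Bmp4 was at 58.2, 84.2, 0.123 and 0.0724 CPM (9.42, SE 0.43, adjusted p = 2.07e-05), whereas Bmp2 was at 0.481, 0.716, 20.5 and 21.1 CPM (-5.10, SE 0.78, adjusted p = 0.00203) and Bmp6 at 1.12, 0.621, 58.7 and 23.9 CPM (-5.57, SE 0.65, adjusted p = 0.000682). The target genes went both ways. Id2 was at 2.03, 2.39, 112 and 132 CPM (-5.78, SE 0.42, adjusted p = 0.000114). Id3 was called higher in ES (1.68, adjusted p = 0.0148), a call that was lost with first libraries only (1.61, adjusted p = 0.105). The antagonist genes Nog and Bmper were higher in XEN too, Nog at 1.28, 0.334, 56.6 and 49.8 CPM (-6.05, SE 0.85, adjusted p = 0.00143) and Bmper at 0.321, 0.191, 112 and 60.5 CPM (-8.39, SE 0.73, adjusted p = 0.000213).

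Wnt genes changed in both directions, with 76.9% called against 45.1% of all genes. Of 26 genes, 11 were higher in ES, 9 higher in XEN and 6 not called, and the XEN count was 5 without ES line 2 and 6 without ES line 1. Axin2, a direct Wnt target gene, was at 115, 106, 6.39 and 6.69 CPM (4.07, SE 0.43, adjusted p = 0.000463), and Sp5, another, at 69.1, 39.1, 0.0614 and 0.108 CPM (9.26, SE 0.55, adjusted p = 4.79e-05). Cdx1 had 722 counts in ES and 0 in XEN, at least 365-fold higher. Ligand genes went both ways: Wnt3a had 32 counts in ES and 0 in XEN and Wnt3 had 17 and 1, both called higher in ES, while Wnt4, Wnt7b and Wnt11 were called higher in XEN. The call of Wnt3 was lost with any 1 line left out (adjusted p from 0.0582 to 0.169), and that of Wnt11 without ES line 2 (adjusted p = 0.0633). Wnt7b was at 0.321, 0.478, 76.7 and 83.8 CPM (-7.62, SE 0.27, adjusted p = 1.61e-05). Of the secreted antagonists, Sfrp1 was at 184, 149, 0.154 and 0.434 CPM (9.15, SE 0.50, adjusted p = 3.77e-05), and Frzb at 0.107, 0.143, 99.7 and 240.0 CPM (-10.34, SE 0.86, adjusted p = 0.00018).

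YAP target and Hippo pathway genes were higher in XEN in 13 of 21 cases, higher in ES in 2, and not called in 6. That is 71.4% called against 45.1% of all genes (median -1.25). The XEN count was 8 with library totals alone, 8 without ES line 1 and 7 without ES line 2, and the ES count was 0 or 1 with any 1 line left out. The secreted targets Ctgf and Cyr61 were at 24.2, 15, 1021 and 1826 CPM (-6.18, SE 0.80, adjusted p = 0.00101) and 6.68, 6.45, 316 and 450 CPM (-5.87, SE 0.38, adjusted p = 6.84e-05). Amot, which encodes a scaffold that holds YAP outside the nucleus, was at 8.07, 6.07, 306 and 182 CPM (-5.11, SE 0.66, adjusted p = 0.001). The coactivators Yap1 and Wwtr1 were not called, at 149, 154, 214 and 187 CPM and 78.3, 67.2, 83.5 and 73.9 CPM.

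LIF pathway genes gave 5 of 15 higher in ES, 5 higher in XEN and 5 not called (66.7% called against 45.1% of all genes). Lifr, the receptor gene, was higher in XEN at 80.1, 65.6, 284 and 198 CPM (-1.73, SE 0.29, adjusted p = 0.00293), as was Lif itself at 9.67, 7.93, 64.1 and 43.7 CPM (-2.62, SE 0.31, adjusted p = 0.00073). The shared receptor subunit gene Il6st was not called, at 146, 107, 124 and 110 CPM. Gbx2, a target in ES cells, was at 22.97, 24.2, 0.338 and 0.0724 CPM (6.78, SE 0.70, adjusted p = 0.000413).

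Of 16 Notch genes, 9 were higher in ES, 5 higher in XEN and 2 not called, and the XEN calls dropped to 0 without ES line 1, 2 without ES line 2 and 3 without either XEN line. In the whole comparison 87.5% of the Notch list were called, against 45.1% of all genes. Rbpj, the DNA-binding partner of Notch, was at 232, 251, 60.5 and 55.7 CPM (2.06, SE 0.18, adjusted p = 0.000212), and Notch4 at 34.1, 21.4, 0.184 and 0.362 CPM (6.66, SE 0.58, adjusted p = 0.000213). Retinoid genes were divided, with 6 of 17 higher in each lineage and 5 not called (70.6% called against 45.1% of all genes). The nuclear receptor gene Rarg was higher in ES, at 48.4, 64.1, 7.25 and 1.88 CPM (3.62, SE 0.61, adjusted p = 0.00296), and Rarb higher in XEN, at 0.107, 0.0955, 3.53 and 10.02 CPM (-6.0, SE 0.80, adjusted p = 0.00113). Cyp26a1, whose product breaks down retinoic acid, was at 0.107, 0.478, 8.08 and 68.9 CPM (-6.99, SE 1.16, adjusted p = 0.00284).

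Among genes that write, read or erase DNA methylation, 7 of 17 were higher in ES, 4 higher in XEN and 6 not called. That is 64.7% called against 45.1% of all genes. The XEN count was 2 without ES line 1 and 2 with library totals alone. Dnmt3l, a cofactor gene for de novo methylation, was at 119, 194, 0.614 and 1.23 CPM (7.41, SE 0.93, adjusted p = 0.000856). The dioxygenase gene Tet1 was at 442, 432, 33.6 and 18.8 CPM (4.06, SE 0.38, adjusted p = 0.000283), and Tet3 was reversed at 26.3, 21.2, 97.5 and 124 CPM (-2.23, SE 0.27, adjusted p = 0.000727). Uhrf1, which recruits the maintenance methyltransferase, was at 623, 580, 228 and 209 CPM (1.46, SE 0.16, adjusted p = 0.000567).

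Polycomb genes gave 9 of 27 higher in ES, 5 higher in XEN and 13 not called, so 51.9% were called against 45.1% of all genes. With 1 line left out the counts were 5 to 8 and 2 to 4, with 5 in ES without either ES line, and in XEN 2 without ES line 2 and 3 without ES line 1 or XEN line 2. Eed, a core subunit gene of PRC2, was at 226, 224, 58.1 and 52.4 CPM (2.03, SE 0.20, adjusted p = 0.000374), and Jarid2, an accessory one, at 252, 244, 40.8 and 39.7 CPM (2.62, SE 0.24, adjusted p = 0.000266). The catalytic subunit gene Ezh2 was not called at 140, 141, 244 and 119 CPM. Pcgf5, of a variant PRC1, was at 4.54, 8.36, 121 and 88.9 CPM (-4.02, SE 0.36, adjusted p = 0.00023).

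Of 22 imprinted genes, 8 were higher in ES, 4 higher in XEN and 10 not called (54.5% called), and the ES count was 4 with any 1 line left out. Over all genes 45.1% were called. Slc38a4, an amino acid transporter gene, was at 6.89, 8.45, 0.338 and 0.362 CPM (4.44, SE 0.50, adjusted p = 0.000577). Rian and Meg3, noncoding RNAs of 1 cluster, were at 150, 177, 0.584 and 2.32 CPM and at 105, 96.0, 0.522 and 1.56 CPM (6.83, SE 1.01, and 6.60, SE 1.09). Peg3 ran the other way at 33.4, 28.7, 436 and 580 CPM (-4.03, SE 0.54, adjusted p = 0.00113). H19 was at 2.56, 5.68, 907 and 553 CPM with no overlap, yet it was not called (-7.46, SE 3.06, adjusted p = 0.0887). With the TS lines left out of the fit H19 was called higher in XEN (-7.45, adjusted p = 0.00107). Other imprinted genes changed their call in that fit too. Igf2r turned from not called to higher in XEN (-1.54, adjusted p = 0.00682). Mest, Grb10 and Nnat turned from not called to higher in ES (adjusted p = 0.00616, 0.0263 and 0.0473). The call of Peg10 towards XEN was lost (-3.35, adjusted p = 0.0588).

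For glucose use, 8 of 27 genes were higher in ES, 4 higher in XEN and 15 not called (44.4% called against 45.1% of all genes), with 13 and 2 under library totals alone and 1 XEN call without either ES line. Pfkp, a phosphofructokinase gene, was at 309, 353, 3.81 and 4.99 CPM (6.23, SE 0.32, adjusted p = 2.99e-05), while its relatives Pfkl and Pfkm were not called. The lactate transporters were exchanged: Slc16a3 was at 44.6, 63.5, 5.50 and 4.34 CPM (3.46, SE 0.25, adjusted p = 0.000114) and Slc16a1 at 116, 110, 1613 and 1554 CPM (-3.80, SE 0.55, adjusted p = 0.0016). Of 21 genes of threonine, glycine and one-carbon metabolism, 4 were higher in ES, 2 higher in XEN and 15 not called (28.6%). Tdh, the threonine dehydrogenase gene on which mouse ES cells depend, was at 682, 669, 2.03 and 9.73 CPM (6.85, SE 0.79, adjusted p = 0.00064). Amt, of the glycine cleavage system, was at 93.3, 79.2, 1.48 and 1.12 CPM (6.04, SE 0.29, adjusted p = 2.14e-05). Phgdh, the entry enzyme gene of serine synthesis, was at 122, 138, 288 and 359 CPM (-1.32, SE 0.19, adjusted p = 0.00149).

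In cholesterol synthesis and uptake, 8 of 24 genes were higher in XEN, 1 higher in ES and 15 not called. That is 37.5% called against 45.1% of all genes. The XEN count was 2 with library totals alone, 1 without either ES line, 3 without XEN line 1 and 10 without XEN line 2, where 2 were higher in ES. Pmvk, a mevalonate pathway kinase gene, was at 21.7, 28.0, 97.0 and 63.5 CPM (-1.69, SE 0.31, adjusted p = 0.00412). Ribosome and proteasome genes had few calls beside the 45.1% of all genes. Of 32 cytosolic ribosomal protein genes 6 were higher in ES, none higher in XEN and 26 not called (18.8%, median 0.17), and 15 were higher in ES with library totals alone. Of 27 proteasome genes 3 were higher in XEN, none higher in ES and 24 not called (11.1%, median -0.26). With library totals alone the median was 0.08, 1 was higher in ES and none higher in XEN. The proteasome calls fell to 0 without ES line 1, ES line 2 or XEN line 2 and rose to 6 without XEN line 1, and the ribosome calls fell to 2 without ES line 2, 3 without XEN line 1 and 4 without ES line 1.

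Cell cycle genes gave 6 of 26 higher in ES, 9 higher in XEN and 11 not called (57.7% called against 45.1% of all genes). With 1 line left out, 2 or 3 were higher in ES and 6 to 8 in XEN. The D-type cyclins were exchanged. Ccnd1 was at 253, 211, 1.60 and 2.32 CPM (6.89, SE 0.61, adjusted p = 0.000214), and Ccnd2 at 5.13, 6.45, 635 and 396 CPM (-6.47, SE 0.75, adjusted p = 0.00064). Cdk6, a kinase partner gene of D cyclins, was at 9.78, 13.2, 0.123 and 0.506 CPM (5.19, SE 0.75, adjusted p = 0.00158). Myc was at 19.4, 14.5, 133 and 151 CPM (-3.07, SE 0.30, adjusted p = 0.000345). Cdk2, Cdk4 and Ccnb1 were not called, Cdk4 at 447, 386, 346 and 425 CPM.

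Among apoptosis genes 6 of 21 were higher in ES, 5 higher in XEN and 10 not called (52.4% called against 45.1% of all genes), 2 or 3 and 1 to 3 with 1 line left out, and 8 and 2 with library totals alone. Trp53, the p53 gene, was at 321, 303, 71.8 and 88.5 CPM (1.96, SE 0.19, adjusted p = 0.000321). Bcl2l1, the anti-apoptotic BCL-XL gene, was at 36.9, 32.8, 159 and 156 CPM (-2.18, SE 0.28, adjusted p = 0.000913). Of 14 genes of MHC class I presentation 4 were higher in XEN, 2 higher in ES and 8 not called (42.9% called), and the XEN count was 1 without either ES line, 2 without XEN line 1 and 7 without XEN line 2. The ES count was 1 without ES line 1, ES line 2 or XEN line 2 and 4 without XEN line 1. B2m, the light chain gene, was at 17.04, 27.6, 212 and 207 CPM (-3.23, SE 0.39, adjusted p = 0.000735), and Irf1, an interferon response factor gene, at 44.2, 44.2, 2.37 and 0.362 CPM (4.99, SE 0.81, adjusted p = 0.00257).

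Markers of cells that neither lineage should hold were low, with named exceptions. The 17 trophoblast genes summed to 134 to 156 CPM in the ES libraries and 133 to 170 CPM in the XEN libraries. Of 16 tested, 3 were higher in ES, 2 higher in XEN and 11 not called (31.2% called against 45.1% of all genes). The TS lines, whose cells this list marks, share in the spread of that fit. Plac1, with 2 counts in ES and 234 in XEN, was not called (-6.14, adjusted p = 0.0858). With the ES and XEN lines only it was called higher in XEN (-6.13, adjusted p = 0.00809). Without ES line 2 no gene of the list was higher in XEN, and without ES line 1, ES line 2 or XEN line 1, 2 were higher in ES. Their defining genes were weak in both lineages, Elf5 with 3 and 14 counts and Cdx2 at 9.08, 2.05, 0.676 and 5.82 CPM. Tcfap2c, also expressed in the epiblast and germ line, was at 43.8, 35.1, 0.215 and 0.0724 CPM (8.01, SE 0.47, adjusted p = 4.79e-05). The trophoblast genes named here make up little of the XEN sum. The 16 fibroblast genes summed to 50.4 to 69.6 CPM in ES and 124 to 405 CPM in XEN, with Col3a1 and Prrx1 at 0 counts in all 8 libraries and Col1a1 at no more than 1.95 CPM in a line. Of 13 tested, 2 were higher in ES, 4 higher in XEN and 7 not called (46.2% called, near the 45.1% of all genes). The XEN count was 0 without ES line 2 and 1 without ES line 1. Most of the XEN sum in line 2 was Fbln2, at 3.21, 2.25, 52.3 and 222 CPM. The 13 blood genes summed to 374 to 657 CPM in ES and 13.0 to 29.9 CPM in XEN. Nearly all of the ES sum was Laptm5, while Cd52 and Lyz2 had 0 to 6 counts a lineage. Of 8 tested, 3 were higher in ES, 2 higher in XEN and 3 not called, and 1 was higher in XEN without ES line 2. Of the 8 blood genes tested, 62.5% were called, against 45.1% of all genes. Csf1r, a receptor gene of macrophages, was at 0.214, 0.0478, 5.78 and 15.9 CPM.

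Some genes with many counts in 1 lineage had almost none in the other. Of the genes with at most 3 counts in XEN, Mcf2, a guanine nucleotide exchange factor gene, had 6265 counts in ES and 3 in XEN, a ratio of 3170 after scaling to library size (95% counting interval 1080 to 15400). Dnahc8, an axonemal dynein gene, had 5343 and 1 (ratio 8110, interval 1460 to 320000), and Prdm14, a naive pluripotency factor gene, 3138 and 1 (4760, interval 854 to 188000). Sh3gl2, Lrrc34 and Dnajc6 followed, with 2556 to 3765 counts in ES and 2 or 3 in XEN. In the other direction Lgi4 had 0 counts in ES and 3243 in XEN, at least 712-fold higher, and Fxyd3, a regulator gene of the sodium pump, 0 and 3020, at least 663-fold higher. Ankrd1, a YAP target gene, had 2 and 6131 counts (ratio 2020, interval 559 to 16700). Tcfec, Ptprb and Ugt2b34 had 1 to 3 counts in ES and 3064 to 4771 in XEN. These intervals cover counting error only.

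Fewer genes differed between the ES lines than between the XEN lines. Of 5863 genes at a mean of at least 32 CPM in ES, 7 were at least 4-fold apart between the lines and 44 at least 2-fold, while of 6359 such genes in XEN 70 and 319 were. Between the libraries of 1 line, 22 and 78 genes in ES lines 1 and 2 and 107 and 566 in XEN lines 1 and 2 were at least 2-fold apart. Whether the lineages differ in this was not tested. The ES genes with the widest gap were the Y-linked Eif2s3y (0.481 and 65.1 CPM), which follows the labelled sex, P2rx7, a purinergic channel gene (177 and 15.6 CPM), Klhl13 (304 and 43.0 CPM), and Tuba3a and Tuba3b, near-identical tubulin genes whose reads may not be separable (182 and 32.6, 71.9 and 13.0 CPM). Klhl13 is X-linked, and its call towards ES (2.38, adjusted p = 0.0351) was lost without ES line 1 (0.37), XEN line 1 (2.27) or XEN line 2 (2.48). It was also lost with sex as a term (1.60, edgeR adjusted p = 0.17) and with the ES and XEN lines only (edgeR adjusted p = 0.0795). With limma voom the adjusted p was 0.106. In XEN the gaps were wider. Lbp, the gene of a lipopolysaccharide-binding protein, was at 0.307 and 132 CPM and Krt19 at 2.03 and 152 CPM. Kcnk1, a potassium channel gene, was at 83.2 and 0.326 CPM, the small heat shock gene Hspb1 at 151 and 0.724 CPM, and Igfbp4 at 90.8 and 0.796 CPM. Without XEN line 1, Kcnk1 turned from not called (-2.79) to higher in ES (4.18, adjusted p = 0.00371), and without XEN line 2 to higher in XEN (-3.80, adjusted p = 0.00147).

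**Figure D5:**
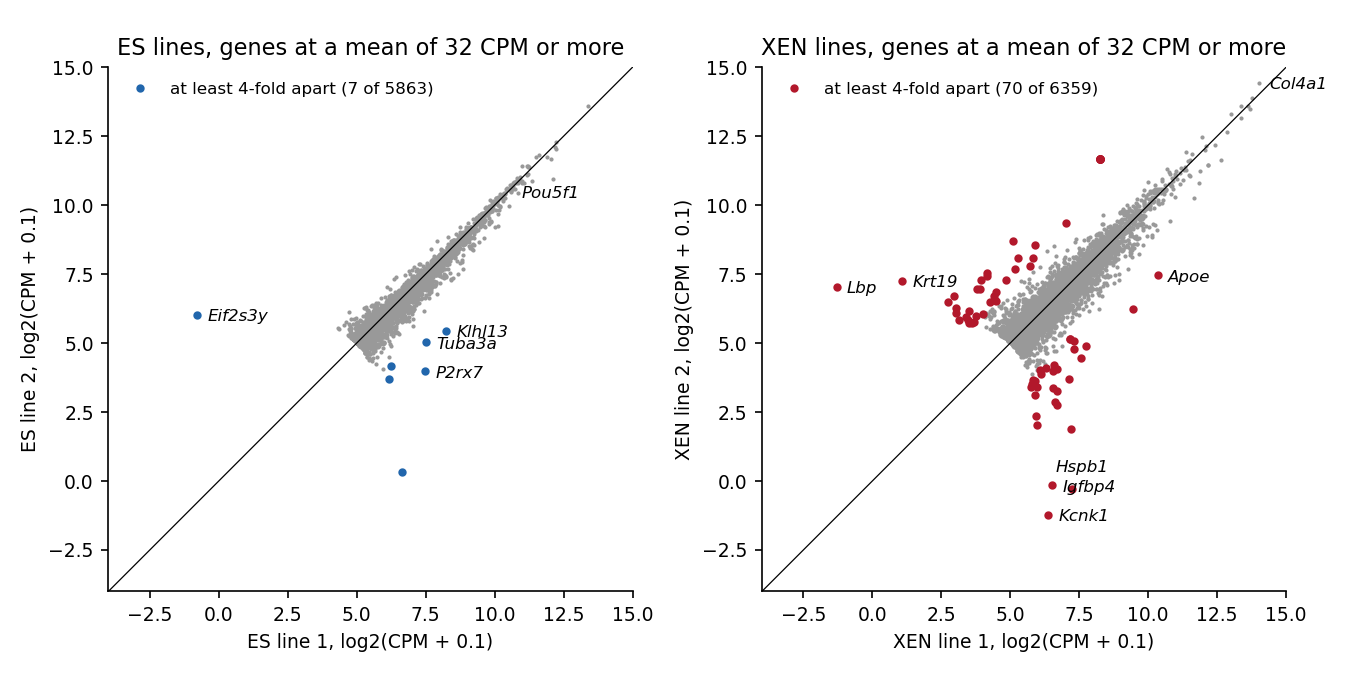
log2(CPM + 0.1) of line 2 against line 1 for ES (left, 5863 genes) and XEN (right, 6359 genes) at a mean of 32 CPM or more, with genes at least 4-fold apart in colour and the line of equality in black. In ES 7 genes leave the diagonal, led by Eif2s3y, and in XEN 70 do, among them Lbp and Krt19 above it and Kcnk1, Igfbp4, Hspb1 and Apoe below it.

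The authors' deposited table lists genes as Nanog-regulated, with a word for up or down in Nanog-null embryos. That is another contrast, in embryos and not in wild-type lines. Of its 71 genes marked DOWN, 68 were tested here, and 19 were higher in ES, 11 higher in XEN and 38 not called (44.1% called against 45.1% of all genes). Of the 7 genes marked UP in the authors' deposited table, 5 were higher in ES, 1 higher in XEN and 1 not called (85.7% called). How the authors chose that list is not stated, so it is no independent evidence on these lines.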

How the data were processed

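RNA-seq counts per gene symbol were deposited by the authors for all 22 libraries in 1 table. Reads were aligned to mm9 with TopHat 1.3.1, and edgeR is also named, per the submitters' processing notes. How reads were assigned to genes, and whether strand was used, is not given in the sources used here, so overlapping genes and near-identical copies may share counts. The direction words of the authors' deposited list were read as labels.

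The 2 libraries of each line were summed. Genes were filtered with filterByExpr by lineage, scaled by TMM and tested with edgeR 4.0.16 (R 4.3.3; robust quasi-likelihood, ES minus XEN) on 7 lines, with Benjamini-Hochberg adjustment over 14687 genes and a threshold of 0.05. The biological coefficient of variation was 0.346. SE was derived from the log2 fold change and its F statistic. The fit was tested on simulated data. Alternatives used DESeq2 1.42.0, limma 3.58.1 (voom), other scalings and filters, sex as a term, the replicate number as a block, single libraries, and each line left out.

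Named were 8 lineage genes, the 12 leading genes each way with a mean log2 CPM of at least 5, more than 3 counts in the lower lineage and no library overlap, 6 low-count genes each way, up to 4 called and 2 not called members of each list, and up to 5 genes a lineage that differed between its lines. Predicted genes were left out. Other members were named after their values were seen. The comparison, members and lists were chosen with earlier results of these data known. Counting intervals are exact at 95%.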

Additional observations from a re-analysis of the deposited data

Results flagged for a closer look

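Gata6 in XEN had 1 library far from the others. It was at 540.0 CPM in library 2 of XEN line 1 and at 291.1, 294.3 and 296.2 CPM in the other XEN libraries. It is the only one of 20 sets of 4 libraries examined where 1 stood apart this way, and chance gives about 1 in 20. Every XEN library lay above every ES library.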

How the results depend on the processing

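With each line left out in turn, 2217 to 2682 genes were higher in ES and 1780 to 2640 higher in XEN, against 3431 and 3199, and 1846 to 2113 and 1062 to 1335 of them at least 4-fold. The lowest counts came without an ES line (2217 and 1780 without ES line 2, 2266 and 1805 without ES line 1). These fits have fewer samples, and a lone line is assumed to vary like the others. Of 435 called list members, 310 to 429 were called the same way under each alternative, and none changed sign. Changes of sign in genes not called in the comparison itself were looked for among the named genes and list members only, not among all genes tested. Called with the opposite sign were Apoe, Kcnk1, Mthfd2l and Tap1 without XEN line 1, and Col1a1 with second libraries only (3.15). Over the lines left out, the log2 fold change ran from -1.04 to 1.85 for Apoe, -3.80 to 4.18 for Kcnk1, -1.0 to 4.40 for Mthfd2l and -4.18 to 1.99 for Tap1, lowest without XEN line 2 and highest without XEN line 1. Why was not tested. The labels number the lines of each lineage. Over all genes tested, the deviations of same-numbered ES and XEN lines from their lineage means had a correlation of -0.0561. With 2 lines a lineage this value cannot show whether same-numbered lines share more than a number. With that number as a replicate block, 3510 genes were higher in ES and 3262 in XEN, 2313 and 1318 of them at least 4-fold, and H19 was called (adjusted p = 0.00137). With 2 lines a lineage and 8201801 to 23677126 counts a library, a gene not called is not shown to be alike in both.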

Other observations

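Counts of sex-linked genes followed the labelled sex of the lines only in part. In the male ES line 2, Kdm5d had 4 and 2 counts in the pair of libraries, although Ddx3y had 464 and 425, Eif2s3y 660 and 703, and Uty 285 and 219. In the male XEN lines Kdm5d had 146, 256, 296 and 73 counts. The female ES line 1 had 19 and 60 counts of Ddx3y and at most 8 of Eif2s3y, Uty and Kdm5d. Xist, the RNA of the inactive X, had 133 and 177 counts in that line, 97 and 49 in the male ES line 2, and 1 to 13 in the XEN libraries. No test was made of these values.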
